A study of Rattus norvegicus with 12 samples.

Results

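Pinosylvin was compared with resveratrol directly in rat L6 myotubes, by setting the 3 arrays from cells given 60 µM pinosylvin against the 3 arrays from cells given 60 µM resveratrol. Members were chosen by the treatment written in the sample labels, which gives 6 of the 12 arrays of the series and 1 pair to compare. L6 is a rat skeletal muscle line whose myoblasts fuse into myotubes when serum is lowered. The cells had been differentiated for 6 days by the labels and were exposed for 24 h. The 3 arrays of cells given only the solvent DMSO serve here as a reference level, and the remaining 3 arrays of the series, from cells given another compound, entered the fit for the spread between replicates and helped decide which probes were tested and which probe stands for a gene.

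The 3 replicates of each group were 3 independent experiments run with the same batch of cells, so every p-value below measures the spread between experiments within 1 batch. Replicates 1 and 2 of all groups were hybridised on 1 slide and replicate 3 on another. Each group always occupied the same column of a slide, so array position and treatment cannot be told apart. Spots well above background made up 62.0%, 60.4% and 60.2% of all spots with pinosylvin, 61.8%, 61.7% and 64.0% with resveratrol, and 62.2%, 59.5% and 64.3% in the controls. The 75th percentile of the signal, which was used to scale each array, was 4579, 4045 and 4800 with pinosylvin, 5262, 4530 and 5648 with resveratrol, and 5508, 4173 and 5707 in the controls. Every level below is a log2 signal relative to that percentile of the same array, and levels of different probes are not comparable with each other.

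Resveratrol and pinosylvin are stilbenes, made by plants against infection and injury. They share the same resorcinol ring, and resveratrol carries a further hydroxyl group on the ring that is unsubstituted in pinosylvin. Stilbenes are known to act on several programs that the gene lists below represent: the antioxidant response run by the transcription factor Nrf2, the Ah receptor, sirtuins and AMP-activated kinase, estrogen receptors, and the cell cycle.

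Markers showed what the cultures held. Of 8 myotube markers with a probe, 8 exceeded background clearly on each of the 9 arrays from control, pinosylvin and resveratrol cells. The same held for 9 of 12 markers of undifferentiated myoblasts, with *Heyl* and *Msc* not above background on any array, and for 9 of 10 fibroblast markers. Of 7 adipocyte markers, 2 were above background on all 9 arrays, and *Adipoq*, *Pparg*, *Lep* and *Cidec* were above it on none. The cultures therefore carried transcripts of myotube markers together with markers of myoblasts and fibroblasts. Which cells made them was not tested. Values from whole cultures cannot tell fewer cells of a type from less RNA per cell.

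Of 24279 probes tested, 3528 (14.5%) differed between pinosylvin and resveratrol at an adjusted p below 0.05, taken from limma's moderated t-test with Benjamini-Hochberg adjustment. Signal was higher with pinosylvin for 1864 probes (7.68%) and lower for 1664 (6.85%). The median size of the difference among these probes was 0.48 log2 units, and 205 of the higher and 124 of the lower probes differed by more than 2-fold. When the replicate number was added as a block, the counts became 3507 higher and 2816 lower. Among the 10741 named genes, each read from its brightest probe, 873 were higher with pinosylvin (8.13%) and 887 lower (8.26%). The median difference over all named genes was 0.0029, and for 3854 of them (35.9%) the values of the 3 pinosylvin arrays did not overlap those of the 3 resveratrol arrays.

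For many transcripts any difference between the compounds was small within measurable limits. Probes that passed the threshold with a small difference are counted here too. For 21416 probes (88.2%) the whole 95% confidence interval of the difference lay between -1 and 1, that is within a 2-fold difference either way, and for 13732 (56.6%) it lay between -0.5 and 0.5. The median width of the interval was 0.49. Of the remaining probes, some differ by more than these limits and others were not measured closely enough to call them alike.

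Each compound changed similar numbers of probes against the DMSO controls: 4019 with pinosylvin (2010 higher, 2009 lower) and 4123 with resveratrol (1941 higher, 2182 lower). Blocking on replicate raised these to 6947 and 6769. By named genes, 923 were higher (8.59%) and 1049 lower (9.77%) with pinosylvin than in controls, and 927 were higher (8.63%) and 1104 lower (10.3%) with resveratrol. Their median differences from control were 0.040 and 0.019. Both of these comparisons use the same 3 control arrays, so their values are given side by side and no likeness is drawn between them. In the lists that follow, counts and medians stand beside these values for all named genes (8.13% higher, 8.26% lower, 35.9% without overlap, median 0.0029), and nothing is called particular to a list. Each difference was also computed under alternative choices of scaling, background correction, filter, test and arrays. A gene marked as lost under a number of alternatives missed the threshold in that many of them. For a gene past the threshold that is given a size, the smallest value among them is printed where it was over 1.5 times smaller.

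**Figure D1:**
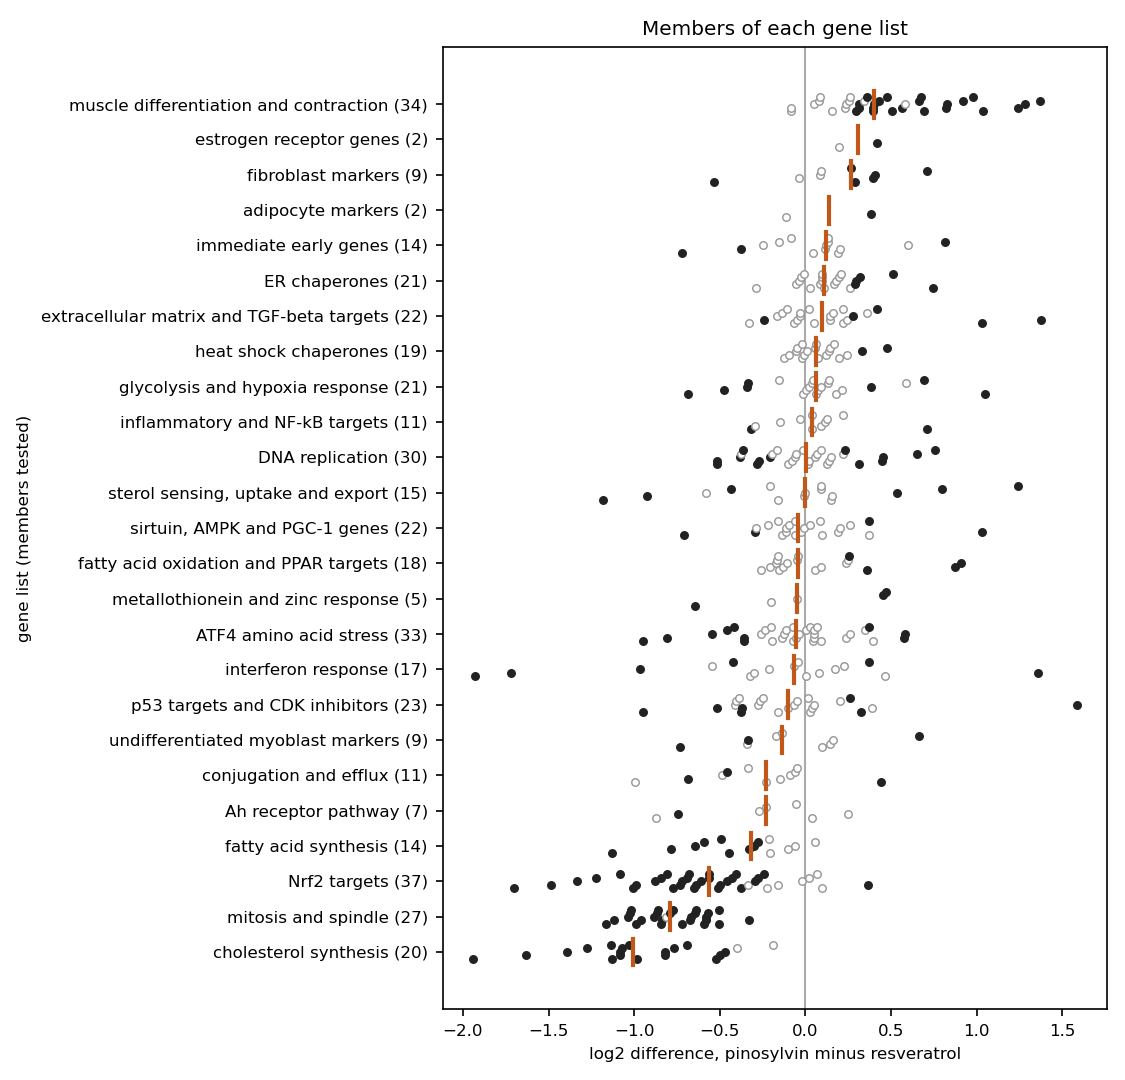
Each point is 1 gene, filled where it passed the threshold, and each orange line the median of its list, with the log2 difference between pinosylvin and resveratrol on the horizontal axis, for 25 gene lists. Cholesterol synthesis, mitosis and Nrf2 targets lie to the left of 0 (medians -1.01, -0.79 and -0.56), and muscle genes to the right (median 0.40).

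Cholesterol is made from acetyl-CoA by a chain of enzymes whose genes are switched on together by SREBP-2 when sterols in the endoplasmic reticulum run low. *Sqle* encodes the first oxygen-requiring step. The later steps, among them those of *Tm7sf2* and *Dhcr7*, turn lanosterol into cholesterol. Transcripts of this chain were lower with pinosylvin than with resveratrol almost throughout.

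Of 20 synthesis genes tested, 18 were lower with pinosylvin and 0 were higher, and in 18 the 2 groups of arrays did not overlap. The median difference was -1.01, against 0.0029 for all named genes. Averaged over the list, the level was 1.99, 2.11 and 1.92 with pinosylvin, 2.96, 3.05 and 2.85 with resveratrol and 3.25, 3.26 and 3.05 in controls. The pinosylvin arrays were thus all below the resveratrol arrays, and the resveratrol arrays lay closer to the controls. Against control all 20 genes were lower with pinosylvin (median -1.26), and 7 were lower with resveratrol (median -0.24).

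The largest difference was in *Tm7sf2*, which encodes a sterol reductase acting on the double bond left by lanosterol demethylation. Its level was 1.09, 1.18 and 0.83 with pinosylvin, 3.08, 3.11 and 2.75 with resveratrol and 3.27, 3.275 and 2.79 in controls, so that only the pinosylvin arrays stood apart (difference -1.94, 95% CI -2.29 to -1.60, adjusted p = 4.40e-05, a 3.84-fold difference). *Dhcr7*, which reduces a late precursor to cholesterol, differed by -1.39 (95% CI -1.74 to -1.05, adjusted p = 0.000286). *Acat2*, which joins the first acetyl-CoA units, differed by -1.28 (95% CI -1.54 to -1.01, adjusted p = 8.98e-05), and each of its 4 tested probes passed the threshold in the same direction. *Idi1*, which makes the reactive isoprene unit, differed by -1.14 (95% CI -1.36 to -0.91, adjusted p = 7.40e-05), and *Cyp51*, which demethylates lanosterol, differed by -1.13 (95% CI -1.34 to -0.92, adjusted p = 5.33e-05).

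The epoxidase of squalene was likewise lowest with pinosylvin. *Sqle* stood at 3.39, 3.62 and 3.44 with pinosylvin, 4.29, 4.29 and 4.18 with resveratrol and 4.79, 4.82 and 4.60 in controls, with every pinosylvin array below every resveratrol array (difference -0.77, 95% CI -0.97 to -0.56, adjusted p = 0.000429). Against control *Sqle* was -1.25 with pinosylvin (adjusted p = 9.50e-06) and -0.48 with resveratrol (adjusted p = 0.00508). The 2 genes of the list that missed the threshold were *Mvk*, a kinase of the mevalonate stage (difference -0.40, 95% CI -0.77 to -0.035, adjusted p = 0.140, or adjusted p = 0.00810 with replicate as a block), and *Fdft1*, which makes squalene (difference -0.19, 95% CI -0.48 to 0.11, adjusted p = 0.403). The interval of *Mvk* leaves room for a sizable difference, and that of *Fdft1* lies between -0.5 and 0.5.

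**Figure D2:**
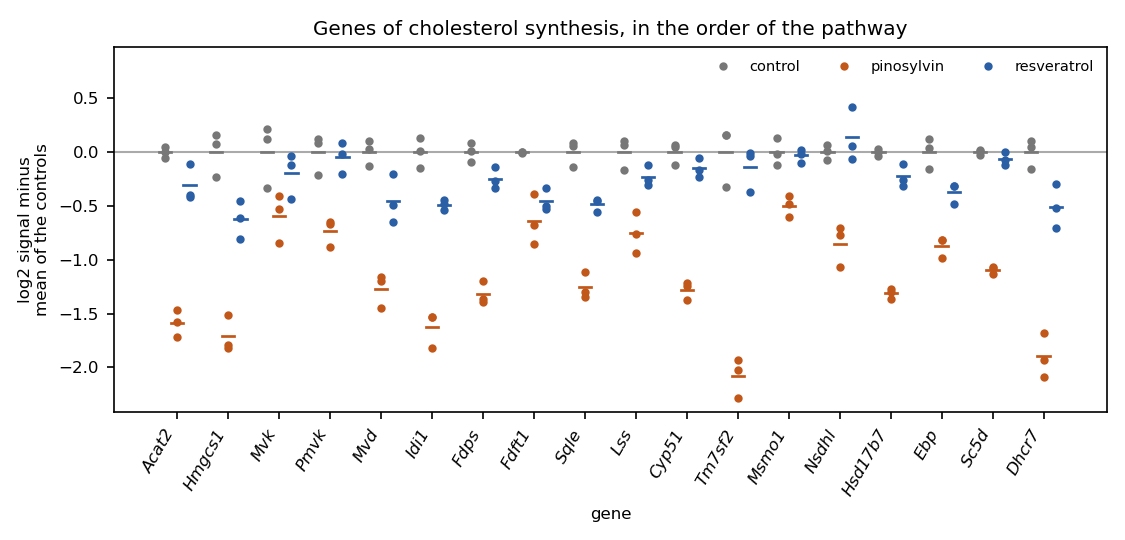
Log2 signal relative to the mean of the 3 controls (vertical axis) for genes of cholesterol synthesis, with 1 point per array and 1 line per group mean. Pinosylvin points lie below resveratrol points for *Tm7sf2* (difference -1.94), while *Fdft1* shows little separation (difference -0.19).

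Cells also adjust sterols by sensing, uptake and export. *Insig1* holds SREBP in the endoplasmic reticulum and is itself an SREBP target, and *Abca1* and *Abcg1* pump cholesterol out under the control of the sterol-activated receptor LXR. In this group, genes driven by SREBP and genes driven by LXR differed in opposite directions. Of 15 genes, 3 were higher with pinosylvin and 3 lower, and the median was -0.00023.

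The lower genes included *Stard4*, a carrier of cholesterol between membranes (difference -1.18, 95% CI -1.49 to -0.87, adjusted p = 0.000404), and *Insig1* (difference -0.93, 95% CI -1.19 to -0.66, adjusted p = 0.000603). Only 1 of the 2 probes of *Stard4* passed the threshold. *Abca1* was -2.62, -2.73 and -2.94 with pinosylvin and -4.05, -4.03 and -3.94 with resveratrol, against -3.35, -3.34 and -3.96 in controls, without overlap between the 2 compounds (difference 1.24, 95% CI 0.87 to 1.62, adjusted p = 0.000936, smallest at 0.53). *Abcg1* (difference 0.80, 95% CI 0.45 to 1.14, adjusted p = 0.00707, lost under 1 alternative) and *Mylip*, a ubiquitin ligase and LXR target (difference 0.53, 95% CI 0.30 to 0.76, adjusted p = 0.00681, lost under 1 alternative), were higher as well. Of the genes given here, the SREBP-driven ones were thus lower and the LXR-driven ones higher with pinosylvin.

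*Srebf2*, which encodes SREBP-2 itself, did not pass the threshold (difference -0.16, 95% CI -0.31 to -0.010, adjusted p = 0.151, or adjusted p = 0.0472 with slide as a block). Its interval lies between -0.5 and 0.5.

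Fatty acid synthesis uses the same acetyl-CoA and is driven largely by the related factor SREBP-1. *Acly* and *Acss2* supply acetyl-CoA, *Fasn* builds the chain, *Elovl6* lengthens it, and *Scd*, *Fads1* and *Fads2* add double bonds. Of 14 genes tested, 9 were lower with pinosylvin and 0 higher, with a median of -0.32. Against control the medians were -0.34 with pinosylvin and -0.045 with resveratrol.

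*Acss2*, which activates acetate, showed the largest difference: 1.49, 1.53 and 1.33 with pinosylvin, 2.60, 2.73 and 2.41 with resveratrol and 2.47, 2.46 and 2.28 in controls, with the pinosylvin arrays lowest (difference -1.13, 95% CI -1.38 to -0.88, adjusted p = 0.000132). The desaturases followed, with *Scd* differing by -0.78 (95% CI -0.9996 to -0.57, adjusted p = 0.000551), *Fads2* by -0.65 (95% CI -0.84 to -0.45, adjusted p = 0.000848) and *Fads1* by -0.50 (95% CI -0.67 to -0.32, adjusted p = 0.00256). *Acly* differed by -0.59 (95% CI -0.79 to -0.40, adjusted p = 0.00156) and *Elovl6* -0.45 (95% CI -0.68 to -0.21, adjusted p = 0.0198, lost under 7 alternatives), the latter on 1 of its 2 probes. *Fasn* was not different within the limits of these arrays (difference -0.21, 95% CI -0.49 to 0.071, adjusted p = 0.319). The list shares *Me1* with the Nrf2 targets.

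Mitosis requires a set of spindle, kinetochore and checkpoint proteins whose genes are transcribed late in the cell cycle, so their transcripts can report how many cells in a culture are dividing. In a differentiated muscle culture they can come from mononucleated cells that still cycle. Which cells made them here was not tested. Both stilbenes lowered these transcripts against control, and pinosylvin left them lower than resveratrol did.

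Of 27 mitosis genes tested, 26 were lower with pinosylvin than with resveratrol and 0 were higher, and in all 27 the 2 groups of arrays did not overlap. The median difference was -0.79. The list level averaged 0.33, 0.39 and 0.23 with pinosylvin, 1.02, 1.22 and 1.03 with resveratrol and 2.03, 2.05 and 1.98 in controls, which puts resveratrol between pinosylvin and control on every array. Against control, 27 of the 27 were lower with pinosylvin (median -1.74) and 26 with resveratrol (median -0.93). *Kif2c*, which takes microtubules apart, was the gene that missed the threshold (difference -0.81, 95% CI -1.38 to -0.25, adjusted p = 0.0600, or 0.0359 with replicate as a block).

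*Nusap1*, which bundles spindle microtubules, stood at 0.65, 0.78 and 0.59 with pinosylvin, 1.80, 2.02 and 1.70 with resveratrol and 2.62, 2.66 and 2.55 in controls. All 3 groups were separate, with pinosylvin lowest (difference -1.16, 95% CI -1.37 to -0.96, adjusted p = 4.40e-05). The same order held for *Aurkb*, a kinase that corrects chromosome attachment (difference -1.12, 95% CI -1.40 to -0.84, adjusted p = 0.000288), and *Ect2*, which drives cytokinesis (difference -1.04, 95% CI -1.17 to -0.91, adjusted p = 1.46e-05). *Foxm1*, the transcription factor that drives many genes of the list, differed by -1.02 (95% CI -1.21 to -0.83, adjusted p = 5.31e-05), *Bub1* of the checkpoint -1.02 (95% CI -1.21 to -0.83, adjusted p = 5.31e-05), and *Ube2c* of the anaphase ubiquitin system -0.99 (95% CI -1.20 to -0.78, adjusted p = 9.90e-05).

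*Mki67*, the usual marker of cycling cells, was 2.48, 2.57 and 2.43 with pinosylvin, 3.30, 3.40 and 3.30 with resveratrol and 4.38, 4.00 and 4.05 in controls, again with pinosylvin lowest and control highest (difference -0.84, 95% CI -1.07 to -0.61, adjusted p = 0.000529). Its 4 probes all passed the threshold. *Cdk1*, the kinase that starts mitosis, differed by -0.58 (95% CI -0.72 to -0.43, adjusted p = 0.000288). Against control *Mki67* was -1.65 with pinosylvin (adjusted p = 3.23e-06) and -0.81 with resveratrol (adjusted p = 0.000497).

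DNA replication genes act earlier in the cycle. They include the helicase subunits of the Mcm family, which with *Cdt1* and *Cdc6* license origins, and enzymes that supply nucleotides, such as *Rrm2*. Some members were higher and others lower. Of 30 genes, 6 were higher with pinosylvin than with resveratrol and 7 lower, and the median was 0.00094.

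The 6 higher genes were *Cdc6*, *Cdt1* and 4 of the Mcm family, while other Mcm genes were not called. *Mcm6* stood at 0.58, 0.60 and 0.59 with pinosylvin, 0.071, -0.28 and -0.27 with resveratrol and 1.15, 1.13 and 0.83 in controls, with resveratrol lowest (difference 0.75, 95% CI 0.50 to 1.01, adjusted p = 0.00180). *Cdt1* (difference 0.65, 95% CI 0.30 to 1.002, adjusted p = 0.0202, lost under 8 alternatives), *Mcm3* (difference 0.45, 95% CI 0.27 to 0.63, adjusted p = 0.00461, on 1 of 2 probes) and *Mcm2* (difference 0.45, 95% CI 0.26 to 0.63, adjusted p = 0.00536) pointed the same way. Among the 7 lower genes, *Rrm2*, a subunit of ribonucleotide reductase, differed by -0.52 (95% CI -0.68 to -0.35, adjusted p = 0.00128). Against control the list as a whole was lower with both compounds, 27 genes with pinosylvin (median -0.68) and 28 with resveratrol (median -0.77).

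Inhibitors of cyclin-dependent kinases hold cells out of the cycle, as do some p53 targets, and some of these genes are also raised as muscle cells differentiate. Of 23 such inhibitors and p53 targets of any function, 3 were higher with pinosylvin and 4 lower (median -0.10). *Cdkn1c*, an inhibitor that keeps differentiating muscle cells out of the cycle, was 1.59, 1.72 and 1.31 with pinosylvin, 0.025, 0.12 and -0.28 with resveratrol and 1.21, 1.22 and 0.94 in controls, with resveratrol lowest (difference 1.58, 95% CI 1.22 to 1.95, adjusted p = 0.000167). *Cdkn1a*, the inhibitor p21, differed by 0.26 (95% CI 0.13 to 0.40, adjusted p = 0.0167, lost under 9 alternatives) on 1 of 2 probes, and *Ddb2*, a DNA repair factor, 0.32 (95% CI 0.12 to 0.52, adjusted p = 0.0373, lost under 10 alternatives, smallest at 0.21). Lower with pinosylvin were *Fas*, a death receptor (difference -0.52, 95% CI -0.79 to -0.24, adjusted p = 0.0195, lost under 7 alternatives, smallest at -0.28, on 1 of 2 probes), *Cdkn2c*, an inhibitor of Cdk4 and Cdk6 (difference -0.38, 95% CI -0.58 to -0.18, adjusted p = 0.0193, lost under 6 alternatives), and *Ccng1*, a p53 target (difference -0.37, 95% CI -0.57 to -0.18, adjusted p = 0.0189, lost under 4 alternatives). *Gdf15*, a secreted stress signal that also belongs to the ATF4 list, was lower too (difference -0.95, 95% CI -1.55 to -0.34, adjusted p = 0.0423, lost under 12 alternatives, smallest at -0.26). It was well above background on only 1 of the 3 pinosylvin arrays.

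Nrf2 is released from its inhibitor when reactive compounds modify cysteines, and then switches on genes for glutathione supply, thioredoxin, NADPH production and detoxification. *Nqo1* reduces quinones, *Srxn1* repairs oxidised peroxiredoxins, *Txnrd1* reduces thioredoxin, *Hmox1* breaks down heme, and *Slc7a11* imports cystine. These genes were lower with pinosylvin than with resveratrol, and as a list they lay further above control with resveratrol.

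Of 37 Nrf2 targets tested, 29 were lower with pinosylvin and 1 higher, and in 31 the 2 groups of arrays did not overlap. The median difference was -0.56. Averaged over the list, the level was 2.20, 2.12 and 2.07 with pinosylvin, 2.75, 2.75 and 2.64 with resveratrol and 1.75, 1.74 and 1.66 in controls, with pinosylvin between the other groups on every array. Against control, 19 genes were higher and 0 lower with pinosylvin (median 0.32), and 31 higher and 0 lower with resveratrol (median 0.76). The gene in the other direction was *Ggt1*, which breaks down extracellular glutathione (difference 0.36, 95% CI 0.15 to 0.58, adjusted p = 0.0316, lost under 6 alternatives).

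*Nqo1* was 3.80, 3.67 and 3.70 with pinosylvin, 5.37, 5.50 and 5.40 with resveratrol and 3.38, 3.284 and 3.38 in controls. Resveratrol arrays were far above both others, and pinosylvin arrays slightly above control (difference -1.70, 95% CI -1.85 to -1.55, adjusted p = 2.60e-06, a 3.25-fold difference). *Srxn1* differed by -1.49 (95% CI -1.77 to -1.20, adjusted p = 5.82e-05), and *Osgin1*, an oxidative stress-induced growth inhibitor, -1.33 (95% CI -1.67 to -0.99, adjusted p = 0.000324). The thioredoxin and pentose phosphate branches followed, with *Txnrd1* differing by -1.09 (95% CI -1.30 to -0.87, adjusted p = 6.48e-05) and *Pgd*, which makes NADPH, by -1.01 (95% CI -1.21 to -0.81, adjusted p = 7.92e-05).

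Glutathione transferases attach glutathione to reactive compounds. *Gsta5* differed by -1.23 (95% CI -1.64 to -0.81, adjusted p = 0.00176) and *Gsta1* -0.56 (95% CI -0.77 to -0.35, adjusted p = 0.00316), but alpha-class transferases are near-identical and their probes may cross-hybridise, so which member was measured is uncertain. *Hmox1* stood at -0.41, -0.57 and -0.68 with pinosylvin, 0.35, 0.11 and -0.091 with resveratrol and -1.34, -1.33 and -1.59 in controls, in ascending order from control to resveratrol without overlap (difference -0.68, 95% CI -0.96 to -0.40, adjusted p = 0.00556). *Slc7a11*, shared with the ATF4 list, differed by -0.81 (95% CI -1.02 to -0.60, adjusted p = 0.000389). *Pir*, an Nrf2-responsive nuclear protein outside the list, differed by -1.30 (95% CI -1.51 to -1.10, adjusted p = 2.47e-05).

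The Ah receptor binds planar aromatic compounds and induces cytochrome P450 genes and its own repressor, *Ahrr*. Of 7 genes tested, 0 were higher with pinosylvin and 1 lower (median -0.23, or -0.051 with normexp). *Ahrr* was 4.11, 4.18 and 4.04 with pinosylvin, 4.90, 4.82 and 4.85 with resveratrol and 4.80, 5.03 and 4.72 in controls, so the pinosylvin arrays were low and the resveratrol arrays lay at the control level (difference -0.74, 95% CI -0.93 to -0.56, adjusted p = 0.000295). *Cyp1b1* was not well above background on any pinosylvin array, so no size is given for it, and it missed the threshold (adjusted p = 0.0957), though not with replicate as a block (0.00789). *Cyp1a1*, the most used readout of this receptor, was not tested, for lack of a named probe or of enough signal.

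Conjugating enzymes and efflux pumps remove stilbenes and their metabolites from cells. Of 11 such genes, 1 was higher with pinosylvin and 2 were lower (median -0.23). The list shares *Abcc1* and *Abcc4* with the Nrf2 targets and *Ugt1a6* with the Ah receptor genes. *Abcb1b*, a P-glycoprotein, differed by -0.68 (95% CI -0.87 to -0.50, adjusted p = 0.000425) and *Abcc4*, a pump for organic anions, -0.46 (95% CI -0.75 to -0.17, adjusted p = 0.0409, lost under 8 alternatives), the latter on 1 of 2 probes. *Sult1a1*, which sulfates phenols, was higher with pinosylvin (difference 0.44, 95% CI 0.29 to 0.59, adjusted p = 0.00200, smallest at 0.26) while both compounds left it below control, by -1.03 with pinosylvin (adjusted p = 4.46e-06) and -1.47 with resveratrol (adjusted p = 9.28e-07).

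Muscle differentiation replaces the cell cycle with a program started by *Myod1* and *Myog* and completed by contractile, calcium-handling and energy genes. *Ckm* encodes muscle creatine kinase, *Atp2a1* the calcium pump of the sarcoplasmic reticulum, *Chrng* the fetal subunit of the acetylcholine receptor, and *Myh7* slow myosin. These transcripts were higher with pinosylvin than with resveratrol. The control level lay between the 2 compounds for the list as a whole.

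Of 34 muscle genes tested, 22 were higher with pinosylvin and 0 lower, and in 26 the 2 groups of arrays did not overlap. The median difference was 0.40. List levels were 3.42, 3.40 and 3.37 with pinosylvin, 2.90, 2.91 and 2.87 with resveratrol and 3.29, 3.30 and 3.20 in controls. Every pinosylvin array was above every control array, and every resveratrol array below. Against control, 7 genes were higher and 4 lower with pinosylvin (median 0.16), whereas 0 were higher and 16 lower with resveratrol (median -0.28).

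*Myog* stood at 6.01, 5.85 and 5.91 with pinosylvin, 4.72, 4.67 and 4.65 with resveratrol and 5.24, 5.25 and 5.08 in controls, with pinosylvin above control and resveratrol below (difference 1.24, 95% CI 0.92 to 1.56, adjusted p = 0.000375). *Ckm* was 2.48, 2.44 and 2.05 with pinosylvin, 1.07, 1.21 and 0.84 with resveratrol and 2.19, 2.15 and 1.89 in controls, with only the resveratrol arrays set apart (difference 1.28, 95% CI 0.98 to 1.59, adjusted p = 0.00021). *Chrng* differed by 1.37 (95% CI 1.14 to 1.60, adjusted p = 3.32e-05), *Atp2a1* 1.04 (95% CI 0.87 to 1.20, adjusted p = 2.33e-05), *Myh7* 0.92 (95% CI 0.58 to 1.25, adjusted p = 0.00271) and *Myod1* 0.98 (95% CI 0.46 to 1.49, adjusted p = 0.0194, lost under 5 alternatives, smallest at 0.26). *Csrp3*, a muscle LIM protein outside the list, differed by 1.68 (95% CI 1.42 to 1.95, adjusted p = 2.32e-05). Skeletal actin, *Acta1*, missed the threshold (difference 0.24, 95% CI 0.066 to 0.41, adjusted p = 0.0689), though not with replicate as a block (0.0278).

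Markers of other cells differed beside the muscle genes. Of 9 tested fibroblast markers, 5 were higher with pinosylvin and 1 lower (median 0.27), and the mean level of the 9 was 2.32, 2.32 and 2.31 with pinosylvin, 2.10, 2.17 and 2.12 with resveratrol and 2.27, 2.25 and 2.23 in controls. The higher ones were *Lum* (difference 0.71, 95% CI 0.49 to 0.93, adjusted p = 0.00104) and *Dcn* (difference 0.39, 95% CI 0.17 to 0.62, adjusted p = 0.0285, lost under 7 alternatives), which encode matrix proteoglycans, *Pdgfrb*, a growth factor receptor (difference 0.41, 95% CI 0.26 to 0.55, adjusted p = 0.00281), *Fap*, a surface protease (difference 0.29, 95% CI 0.13 to 0.44, adjusted p = 0.0202, lost under 7 alternatives), and *Col1a2*, a fibrillar collagen (difference 0.27, 95% CI 0.11 to 0.43, adjusted p = 0.0306, lost under 11 alternatives, smallest at 0.064). *Thy1*, a surface marker, was lower (difference -0.53, 95% CI -0.70 to -0.36, adjusted p = 0.00137). The median of the 9 depended on scaling, and was 0.077 after quantile normalization and 0.064 in the deposited table, in both of which *Col1a2* lost its call. The part of such cells in the muscle result was not tested.

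Undifferentiated myoblasts carry markers of their own. Of 9 tested, 1 was higher with pinosylvin, the cadherin *Cdh15* (difference 0.66, 95% CI 0.40 to 0.93, adjusted p = 0.00472), and 2 were lower, *Id1* (difference -0.73, 95% CI -0.93 to -0.54, adjusted p = 0.000453, smallest at -0.47) and *Id2* (difference -0.33, 95% CI -0.53 to -0.14, adjusted p = 0.0307, lost under 9 alternatives), which block the muscle regulatory factors (median -0.13). Of 2 adipocyte markers tested, 1 was higher, the complement factor *Cfd* (difference 0.39, 95% CI 0.15 to 0.62, adjusted p = 0.0342, lost under 7 alternatives; median 0.14), while 4 of the defining adipocyte markers were not above background on any array. The part of these cells was likewise not tested.

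**Figure D3:**
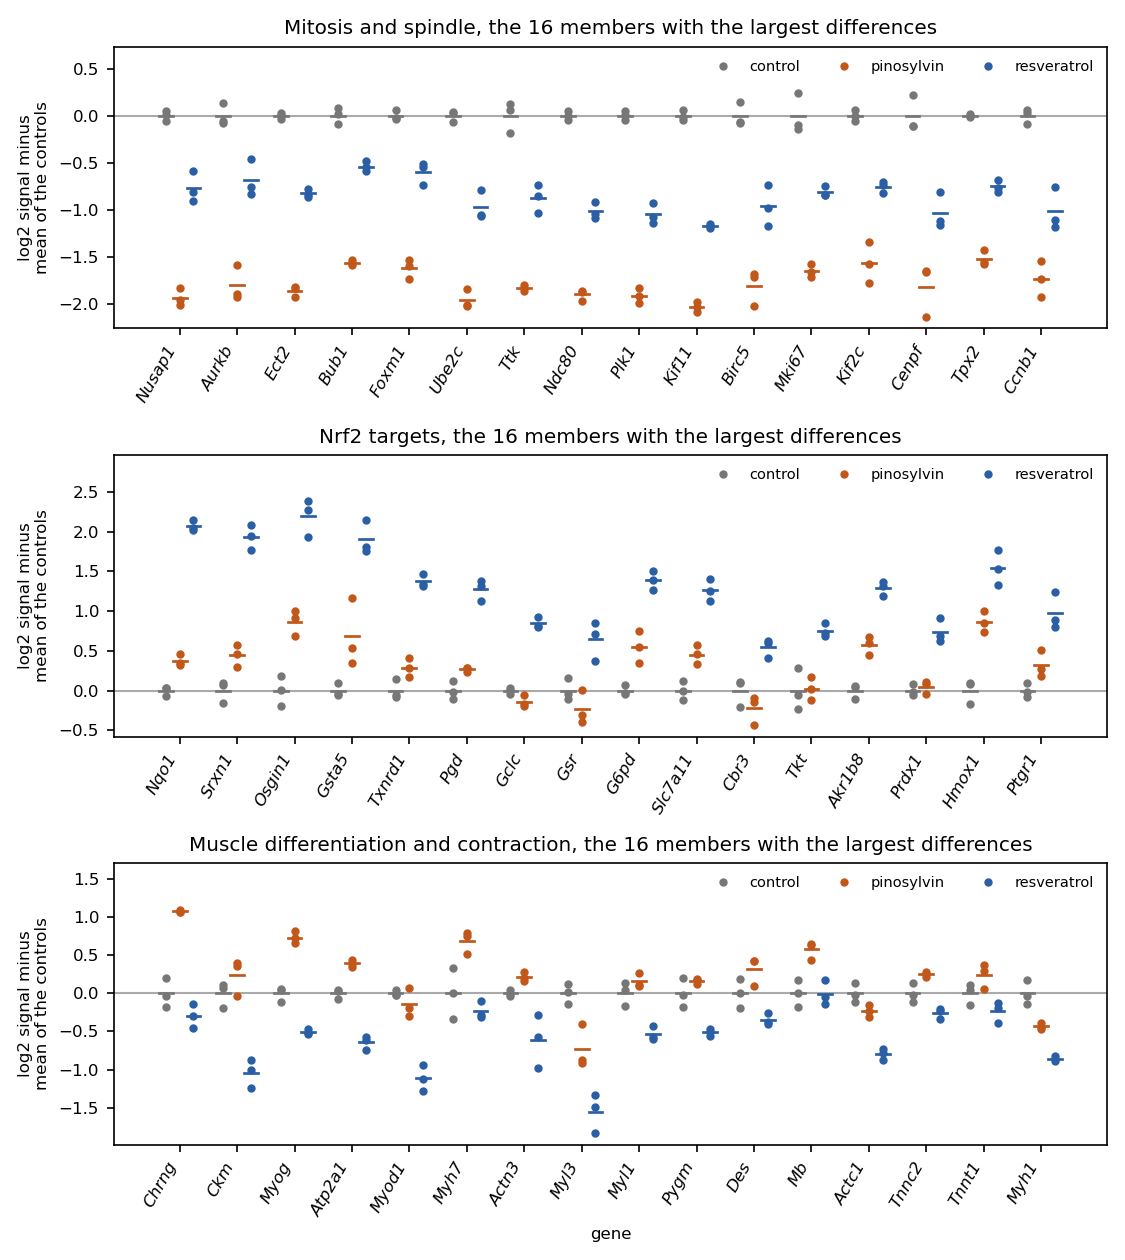
Log2 signal relative to the control mean (vertical axis) for the 16 members with the largest differences in 3 lists, with 1 point per array and 1 line per group mean. Mitosis genes descend from control over resveratrol to pinosylvin, Nrf2 targets such as *Nqo1* (difference -1.70) are highest with resveratrol, and most muscle genes drawn are lowest with resveratrol.

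Extracellular matrix and TGF-beta target genes are made by fibroblasts and myoblasts alike. Of 22 genes, 4 were higher with pinosylvin and 1 lower (median 0.097). *Postn*, a matricellular protein, was -2.13, -2.37 and -2.58 with pinosylvin, -3.93, -3.61 and -3.68 with resveratrol and -3.10, -3.04 and -3.07 in controls, with pinosylvin above control and resveratrol below (difference 1.38, 95% CI 1.11 to 1.64, adjusted p = 5.98e-05, smallest at 0.69). *Thbs1*, which activates latent TGF-beta, differed by 1.03 (95% CI 0.74 to 1.33, adjusted p = 0.000667), *Tnc*, an adhesion-modulating glycoprotein, 0.42 (95% CI 0.15 to 0.68, adjusted p = 0.0439, lost under 11 alternatives) on 1 of 2 probes, and *Mmp2*, a gelatinase, 0.28 (95% CI 0.12 to 0.43, adjusted p = 0.0230, lost under 10 alternatives, smallest at 0.18). *Ccn2*, a growth factor of the matrix, was lower (difference -0.24, 95% CI -0.40 to -0.083, adjusted p = 0.0474, lost under 13 alternatives).

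Resveratrol is best known for its action on sirtuins and AMP-activated kinase, which act upon the coactivator PGC-1. Of 22 genes of this group, 2 were higher with pinosylvin and 2 lower (median -0.044). *Prkag2*, a regulatory subunit of the kinase, differed by -0.71 (95% CI -0.87 to -0.54, adjusted p = 0.000201, smallest at -0.42) and the nuclear sirtuin *Sirt7* -0.29 (95% CI -0.42 to -0.16, adjusted p = 0.00817, lost under 1 alternative), the latter on 1 of 2 probes. *Prkab2*, another regulatory subunit, was higher (difference 0.37, 95% CI 0.13 to 0.61, adjusted p = 0.0453, lost under 12 alternatives, on 1 of 2 probes). *Prkaa2*, a catalytic subunit, was not well above background on any resveratrol array. It was well above it on 2 of 3 pinosylvin arrays and was higher there (adjusted p = 0.0232, lost under 9 alternatives), with no size given because its resveratrol signal was too dim to measure one. *Sirt1* and *Ppargc1a* were not tested, for lack of a named probe or of enough signal.

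Fatty acid oxidation genes respond to PPAR receptors activated by fatty acids. Of 18 genes of oxidation and other PPAR targets, 4 were higher with pinosylvin and 0 lower (median -0.045). The other 14 were not called, among them every tested enzyme of fatty acid oxidation itself. *Cd36*, the fatty acid transporter, was -3.59, -3.52 and -3.54 with pinosylvin, -4.30, -4.50 and -4.57 with resveratrol and -4.08, -4.07 and -4.17 in controls, highest with pinosylvin and lowest with resveratrol (difference 0.91, 95% CI 0.74 to 1.07, adjusted p = 5.31e-05, smallest at 0.31). The mitochondrial uncoupling proteins *Ucp3* (difference 0.87, 95% CI 0.38 to 1.37, adjusted p = 0.0267, lost under 8 alternatives, smallest at 0.31) and *Ucp2* (difference 0.36, 95% CI 0.14 to 0.57, adjusted p = 0.0326, lost under 6 alternatives) and the lipoprotein lipase *Lpl* (difference 0.26, 95% CI 0.090 to 0.42, adjusted p = 0.0452, lost under 14 alternatives) were higher too. *Pdk4*, a PPAR target in muscle, was not tested.

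Glycolysis and the hypoxia response share many genes. Of 21 tested, 3 were higher with pinosylvin and 4 lower (median 0.063). *Hk2*, the muscle hexokinase, stood at -1.37, -1.35 and -1.42 with pinosylvin, -2.28, -2.70 and -2.30 with resveratrol and -2.54, -2.48 and -2.20 in controls, where only pinosylvin departed from control (difference 1.05, 95% CI 0.78 to 1.32, adjusted p = 0.000361). *Slc2a4*, the insulin-responsive glucose transporter GLUT4, differed by 0.39 (95% CI 0.24 to 0.53, adjusted p = 0.00348), and *Ankrd37*, a hypoxia target, 0.69 (95% CI 0.52 to 0.86, adjusted p = 0.000314). Lower were the vasodilator peptide *Adm* (difference -0.69, 95% CI -0.84 to -0.54, adjusted p = 0.000137), *Ndrg1*, a stress-responsive growth regulator (difference -0.48, 95% CI -0.61 to -0.35, adjusted p = 0.000482), and the platelet phosphofructokinase *Pfkp* (difference -0.34, 95% CI -0.54 to -0.14, adjusted p = 0.0325, lost under 8 alternatives).

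ATF4 is translated when amino acids are short or proteins misfold, and turns on genes of amino acid supply. Of 33 targets, 3 were higher with pinosylvin and 7 lower (median -0.056). Against control the medians were 0.18 with pinosylvin and 0.29 with resveratrol. *Trib3*, a pseudokinase that feeds back on ATF4, differed by -0.55 (95% CI -0.84 to -0.26, adjusted p = 0.0186, lost under 5 alternatives), and *Psat1* of serine synthesis -0.46 (95% CI -0.73 to -0.18, adjusted p = 0.0325, lost under 6 alternatives). *Ppp1r15a*, which restores translation after stress, was higher (difference 0.58, 95% CI 0.33 to 0.82, adjusted p = 0.00592), as was *Cth*, which makes cysteine (difference 0.58, 95% CI 0.26 to 0.90, adjusted p = 0.0239, lost under 10 alternatives, smallest at 0.28). *Atf4* itself missed the threshold (difference 0.23, 95% CI 0.024 to 0.44, adjusted p = 0.133, or 0.0381 with replicate as a block). *Gdf15* and *Sesn2* also sit in the p53 list.

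The 2 chaperone lists had the largest shares of genes whose whole interval lay between -0.5 and 0.5. These were 85.7% in the endoplasmic reticulum list and 94.7% in the heat shock list, against 56.6% of all tested probes. The part of signal level in these shares was not tested. In the endoplasmic reticulum, 5 of 21 genes were higher with pinosylvin and 0 lower (median 0.11), and for 18 of the 21 the whole interval lay between -0.5 and 0.5. *Derl3*, which pulls misfolded proteins out of the compartment, differed by 0.74 (95% CI 0.44 to 1.05, adjusted p = 0.00520, lost under 2 alternatives, smallest at 0.33), the stress sensor *Atf6* 0.51 (95% CI 0.35 to 0.67, adjusted p = 0.00123), and *Sdf2l1*, a cofactor of the chaperone BiP, 0.32 (95% CI 0.15 to 0.49, adjusted p = 0.0184, lost under 5 alternatives). *Hyou1*, a nucleotide exchange factor (difference 0.30, 95% CI 0.10 to 0.49, adjusted p = 0.0475, lost under 15 alternatives), and *Pdia6*, a disulfide isomerase (difference 0.29, 95% CI 0.13 to 0.46, adjusted p = 0.0263, lost under 10 alternatives, smallest at 0.19), were higher as well. *Hspa5*, which encodes BiP, was alike within narrow limits (difference -0.040, 95% CI -0.21 to 0.13, adjusted p = 0.800).

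Among cytosolic and mitochondrial heat shock chaperones that share was larger still. Of 19, 2 were higher with pinosylvin and 0 lower (median 0.064), and in 18 the interval lay between -0.5 and 0.5. *Hspe1*, the mitochondrial co-chaperone, differed by 0.47 (95% CI 0.29 to 0.66, adjusted p = 0.00384), and *Cryab*, a small chaperone abundant in muscle, 0.33 (95% CI 0.17 to 0.50, adjusted p = 0.0147, lost under 7 alternatives, smallest at 0.083). Among 5 metallothionein and zinc-responsive genes, 2 were higher and 1 lower (median -0.051). *Mt1*, which binds zinc and copper, differed by -0.64 (95% CI -0.87 to -0.41, adjusted p = 0.00244), *Mt3* of the same family 0.47 (95% CI 0.20 to 0.74, adjusted p = 0.0279, lost under 10 alternatives, smallest at 0.24), and the zinc exporter *Slc30a1* 0.45 (95% CI 0.28 to 0.63, adjusted p = 0.00408).

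Interferon-stimulated genes act against viruses. Of 17, 2 were higher with pinosylvin and 4 lower (median -0.066). *Cxcl10*, a chemokine, was -2.08, -2.12 and -1.55 with pinosylvin, -0.087, 0.0094 and 0.12 with resveratrol and -1.10, -0.72 and -0.59 in controls, with pinosylvin below and resveratrol above control (difference -1.93, 95% CI -2.29 to -1.57, adjusted p = 5.56e-05). *Rsad2*, an antiviral enzyme well above background on only 2 of 3 pinosylvin arrays, differed by -1.72 (95% CI -2.28 to -1.17, adjusted p = 0.00138, smallest at -0.83), the translation inhibitor *Ifit2* -0.97 (95% CI -1.28 to -0.66, adjusted p = 0.00133), and the transcription factor *Irf1* -0.42 (95% CI -0.58 to -0.26, adjusted p = 0.00378). *Usp18*, which curbs interferon signaling (difference 1.36, 95% CI 0.53 to 2.19, adjusted p = 0.0357, lost under 8 alternatives, smallest at 0.50), and the tethering protein *Bst2* (difference 0.37, 95% CI 0.14 to 0.60, adjusted p = 0.0378, lost under 9 alternatives) were higher.

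Among 11 inflammatory genes, 1 was higher with pinosylvin and 1 lower (median 0.040). *Ptgs2*, the inducible cyclooxygenase, differed by 0.71 (95% CI 0.33 to 1.09, adjusted p = 0.0202, lost under 8 alternatives, smallest at 0.41) and *Cxcl1*, a chemokine for neutrophils, -0.32 (95% CI -0.52 to -0.12, adjusted p = 0.0420, lost under 9 alternatives). Immediate early genes answer growth signals within minutes, and of 14 tested 1 was higher and 2 lower (median 0.12). *Egr1*, a transcription factor, differed by 0.81 (95% CI 0.62 to 1.01, adjusted p = 0.000207). *Ier3*, which modulates survival signals, differed by -0.72 (95% CI -0.84 to -0.60, adjusted p = 2.51e-05), and *Fosl1*, a partner of Jun, -0.38 (95% CI -0.56 to -0.19, adjusted p = 0.0123, lost under 1 alternative). Of the estrogen receptor list only 2 genes were tested, *Gper1* and *Greb1*, with a median of 0.31. The membrane receptor *Gper1* was higher (difference 0.42, 95% CI 0.21 to 0.63, adjusted p = 0.0143, lost under 5 alternatives). The receptor genes *Esr1*, *Esr2* and *Pgr* were not tested.

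Several of the largest differences lay outside the lists. *S100a3*, which encodes a calcium- and zinc-binding protein, was 2.49, 2.31 and 2.46 with pinosylvin, 0.15, 0.13 and 0.14 with resveratrol and 1.12, 1.18 and 1.14 in controls, with pinosylvin above and resveratrol below control on every array (difference 2.28, 95% CI 2.13 to 2.42, adjusted p = 1.50e-07, a 4.84-fold difference). *F13a1*, a transglutaminase subunit that cross-links matrix and fibrin, differed by 1.98 (95% CI 1.75 to 2.20, adjusted p = 8.69e-06, smallest at 1.09). *Ovol3*, a zinc finger gene (difference 1.85, 95% CI 1.51 to 2.20, adjusted p = 5.54e-05, smallest at 0.99), *Aspg*, an asparaginase (difference 1.81, 95% CI 1.55 to 2.07, adjusted p = 2.10e-05, smallest at 0.66), and *Sox8*, a transcription factor of satellite cells (difference 1.77, 95% CI 1.31 to 2.23, adjusted p = 0.00037, smallest at 0.63), were also higher with pinosylvin. The sizes of dim genes such as these depended on background correction and were smaller with normexp.

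*Dhrs7c*, a dehydrogenase of the sarcoplasmic reticulum, differed through its low level with resveratrol: 0.52, 0.48 and 0.27 with pinosylvin, -1.33, -1.31 and -1.36 with resveratrol and 0.46, 0.41 and 0.16 in controls, where pinosylvin and control overlap (difference 1.76, 95% CI 1.48 to 2.03, adjusted p = 2.33e-05). The hydrolase *Cmbl* differed by 1.75 (95% CI 1.04 to 2.47, adjusted p = 0.00487, smallest at 0.69), *Shroom2*, which shapes the actin cortex, 1.60 (95% CI 1.33 to 1.87, adjusted p = 3.32e-05, smallest at 0.88), and *Apoc1*, an LXR-responsive apolipoprotein, 1.59 (95% CI 1.33 to 1.85, adjusted p = 2.79e-05). *Klk1c2*, a kallikrein, differed by 1.60 (95% CI 1.44 to 1.76, adjusted p = 3.30e-06), although rat kallikreins are near-identical and the member measured is uncertain.

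In the lower direction, *Neil3*, a DNA glycosylase of dividing cells, was -4.22, -4.29 and -4.23 with pinosylvin, -2.98, -2.89 and -2.73 with resveratrol and -2.34, -2.35 and -2.18 in controls, lowest with pinosylvin (difference -1.38, 95% CI -1.61 to -1.15, adjusted p = 3.32e-05, smallest at -0.60). *Egfr*, the epidermal growth factor receptor, differed by -1.29 (95% CI -1.53 to -1.05, adjusted p = 5.54e-05, smallest at -0.78). Against control *Egfr* was -0.27 with pinosylvin (adjusted p = 0.119) and 1.01 with resveratrol (adjusted p = 0.000166).

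Some genes did not rise well above background on any array of the lower group. Where the rule allows a size, it is given as a bound, which sets the mean of the brighter group against that of the dim group with each array raised to the lowest signal well above background. Lower with pinosylvin were *Gsta2*, an alpha-class transferase of uncertain identity (at least 2.35-fold, adjusted p = 0.000304), *Evi2b*, a membrane protein of blood cells (at least 2.29-fold, adjusted p = 0.000162), *Piwil2*, of the germline small RNA pathway (at least 1.83-fold, adjusted p = 0.0141, lost under 3 alternatives), and the interleukin receptor *Il6r* (adjusted p = 0.00308, lost under 1 alternative). Higher were the protease *Gzmb* (at least 2.64-fold, adjusted p = 0.00426, lost under 1 alternative), *Dusp26*, a phosphatase (adjusted p = 2.47e-05), and *Galnt16*, a glycosyltransferase (adjusted p = 0.00236, lost under 2 alternatives). For *Il6r*, *Dusp26*, *Galnt16* and *Prkaa2* the bound equals the fitted value and none is given. The bounds hold only for the arrays, scaling and background correction used here. With normexp and in the deposited table all differences were smaller than the bounds, *Gzmb* also came out below its bound after quantile normalization (1.35) and without resveratrol replicate 1 (1.18), and *Piwil2* without resveratrol replicate 2 (-0.87).

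**Figure D4:**
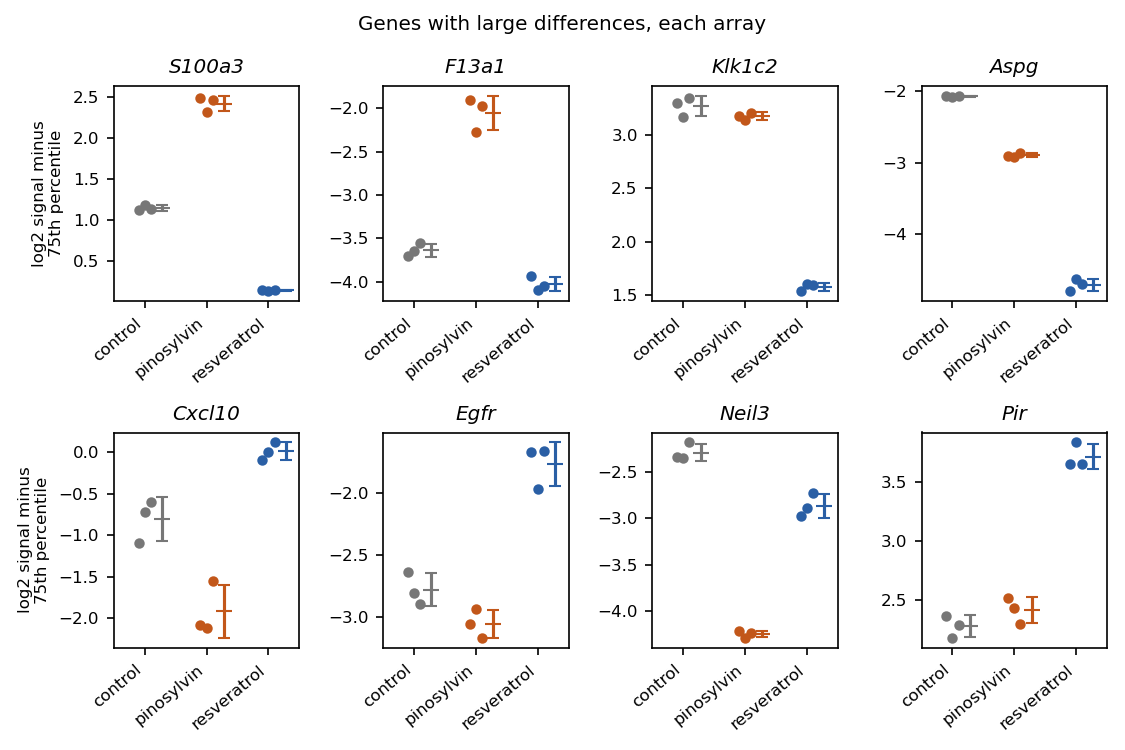
Log2 signal relative to the percentile of each array (vertical axis) for single genes in the control, pinosylvin and resveratrol groups, with 1 point per array and bars for the mean and SD. Groups separate fully in *S100a3* (difference 2.28) and the control overlaps pinosylvin in *Klk1c2*, where only resveratrol is low (difference 1.60).

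Promoters of list genes were read for known motifs in the 250 bases before the RefSeq transcription start, on both strands. The CCAAT box, CCAAT, binds NF-Y, a partner of both SREBP and the late cell cycle complexes. It lay in 12 of 15 cholesterol promoters (80%) and 16 of 22 mitosis promoters (72.7%), against 34% of all 33469 promoters and 36% of those of tested genes. Other lists held it often as well, with 18 of 18 ER chaperone promoters (100%) and 7 of 9 myoblast marker promoters (77.8%). Among Nrf2 targets it lay in 8 of 31 (25.8%). The sterol element core CACCCCAC lay in 1 of the 15, *Ebp*, a sterol isomerase gene, against 2.32% of all. A match in so short a sequence is a description and shows neither a bound site nor a cause. The sequences below are credited to RefSeq on build GRCr8, with capitals for matches of the motif that each sequence is shown for, the box in the first 3 and the sterol element in *Ebp*, and the reverse strand reading ATTGG for the box. *Tm7sf2* lies at chr1:212789542-212789791 on the minus strand, *Idi1* at chr17:66547525-66547774 minus, *Hmgcs1*, a synthase gene of the mevalonate stage, at chr2:53382054-53382303 plus, and *Ebp* at chrX:16971212-16971461 plus.
Tm7sf2: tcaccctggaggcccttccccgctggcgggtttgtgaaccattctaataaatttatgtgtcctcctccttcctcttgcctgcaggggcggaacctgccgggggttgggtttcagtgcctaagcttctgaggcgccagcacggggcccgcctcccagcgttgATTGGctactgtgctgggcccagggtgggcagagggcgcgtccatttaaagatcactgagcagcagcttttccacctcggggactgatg
Idi1: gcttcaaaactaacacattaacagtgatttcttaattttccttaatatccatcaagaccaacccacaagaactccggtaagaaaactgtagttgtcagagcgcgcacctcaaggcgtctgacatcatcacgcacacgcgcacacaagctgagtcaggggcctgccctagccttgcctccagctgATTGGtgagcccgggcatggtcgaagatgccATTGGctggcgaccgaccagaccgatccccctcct
Hmgcs1: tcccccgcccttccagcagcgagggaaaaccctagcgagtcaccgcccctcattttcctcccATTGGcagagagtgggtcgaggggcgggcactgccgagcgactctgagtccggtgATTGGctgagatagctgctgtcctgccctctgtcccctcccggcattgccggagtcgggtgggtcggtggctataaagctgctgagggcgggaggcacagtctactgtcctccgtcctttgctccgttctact
Ebp: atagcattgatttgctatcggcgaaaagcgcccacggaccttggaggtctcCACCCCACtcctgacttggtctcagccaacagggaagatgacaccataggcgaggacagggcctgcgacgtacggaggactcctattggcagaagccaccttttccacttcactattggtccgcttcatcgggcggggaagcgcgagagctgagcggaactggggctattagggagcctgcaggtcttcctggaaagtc

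The cell cycle homology region, TTTGAA, is read by the complex that silences mitosis genes in resting cells. It lay in 9 of 22 mitosis promoters (40.9%), against 16.2% of all promoters and 10.8% of those of tested genes. *Ect2* lies at chr2:111966627-111966876 minus, *Birc5*, a survival and chromosome passenger gene, at chr10:103571896-103572145 plus, and *Mki67* at chr1:199952594-199952843 minus. The region was searched on both strands, as TTTGAA or TTCAAA, and every match in the sequences shown reads TTTGAA.
Ect2: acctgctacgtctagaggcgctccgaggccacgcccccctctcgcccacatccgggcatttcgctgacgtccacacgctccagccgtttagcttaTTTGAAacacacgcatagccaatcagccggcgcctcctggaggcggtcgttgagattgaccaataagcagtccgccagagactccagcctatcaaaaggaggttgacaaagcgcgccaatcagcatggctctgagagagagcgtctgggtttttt
Birc5: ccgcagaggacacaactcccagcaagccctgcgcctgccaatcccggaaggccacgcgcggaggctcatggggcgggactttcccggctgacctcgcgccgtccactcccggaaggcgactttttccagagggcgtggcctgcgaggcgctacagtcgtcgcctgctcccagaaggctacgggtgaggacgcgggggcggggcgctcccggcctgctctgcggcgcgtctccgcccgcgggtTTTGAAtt
Mki67: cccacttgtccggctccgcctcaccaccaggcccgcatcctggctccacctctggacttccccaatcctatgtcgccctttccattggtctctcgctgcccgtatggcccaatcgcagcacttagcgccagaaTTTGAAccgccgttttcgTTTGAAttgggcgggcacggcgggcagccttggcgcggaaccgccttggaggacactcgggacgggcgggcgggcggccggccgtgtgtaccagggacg

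The antioxidant response element core, TGACNNNGC with N for any base, binds Nrf2 with small Maf proteins and overlaps the AP-1 motif in its first letters. It lay in 4 of 31 Nrf2 target promoters (12.9%), against 10.1% of all and 12.3% of those of tested genes, and many known elements lie farther upstream than was read. The Ah receptor core GCGTG lay in 4 of 5 promoters of its list, against 43.6% of those of tested genes. It was frequent elsewhere too, in 13 of 18 ER chaperone promoters (72.2%) and 21 of 31 ATF4 target promoters (67.7%). The ATF4 element core TGATGCAAT lay in 2 of 31 ATF4 target promoters (6.45%), against 0.161% of all. *Prdx1*, a peroxiredoxin gene, lies at chr5:135383656-135383905 plus, and *Gstp1*, a glutathione transferase gene, at chr1:210769706-210769955 minus.
Prdx1: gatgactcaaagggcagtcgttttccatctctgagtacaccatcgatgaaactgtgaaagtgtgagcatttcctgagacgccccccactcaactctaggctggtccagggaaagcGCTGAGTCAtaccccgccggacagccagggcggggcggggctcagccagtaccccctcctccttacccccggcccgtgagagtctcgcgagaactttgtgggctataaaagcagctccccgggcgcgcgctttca
Gstp1: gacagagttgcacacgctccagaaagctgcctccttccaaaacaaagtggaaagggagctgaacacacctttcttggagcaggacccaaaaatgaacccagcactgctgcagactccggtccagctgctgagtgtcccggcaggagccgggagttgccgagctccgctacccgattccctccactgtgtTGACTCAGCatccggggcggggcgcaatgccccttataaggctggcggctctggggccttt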

How the data were processed

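The raw files of 12 one-colour Agilent arrays were read, as written by Agilent Feature Extraction 12.0.0.7. Per the file headers, the processed signal is an intensity from which background had been subtracted within the array by the scanner software before deposit, and it was converted to log2 in this work. The authors' deposited series table holds normalized log2 values of 25848 probes, of which 24210 were tested here, and served only as an alternative. Spots marked as outliers were removed, spots of a probe were averaged, and each array had its own 75th percentile over probes subtracted. Testing required a signal well above background in every replicate of some group (4 groups of 3 arrays), which left 24279 of 45598 probes, and 87.4% of those reached it on all 12 arrays.

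Group means over the 12 arrays were fitted with limma 3.58.1 in R 4.3.3, and differences were tested with its moderated t-test and Benjamini-Hochberg adjustment over the 24279 tested probes. Probes were named by RefSeq accession through the gene table of build GRCr8, which named 46.3% of the probes on the array, and each gene was read from its brightest probe by the mean of the 12 arrays. Of the genes named in the text by the rule below, 28 had several tested probes. All 28 had every probe in the same direction, and in 19 every probe passed the threshold. The 5 list members named outside the rule and the genes given only for their promoters were not counted.

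Genes were named in the text by rule: the 12 largest differences each way, up to 4 bounds each way, the 6 members of every list with the largest differences past the threshold, and a set of well-known genes. Some genes that met the rule are not described. A further 5 list members were named after their values were seen, and promoters are given for some other list members. The 25 lists and the members of the comparison were chosen with earlier results of these data known. 7 genes sit in 2 lists each.

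The replicate numbers were checked for pairing from the residuals of the pinosylvin and resveratrol arrays. Arrays of the same number correlated at 0.360, 0.255 and 0.732, all above 0.1, so replicate number was used as a block in an alternative. Replicates 1 and 2, which share a slide, correlated as much across numbers (0.360 and 0.397), so slide and experiment are not separable there. The normexp alternatives used the median spot signal because the files hold no mean signal. The differentiation time is 6 days in the labels and 7 days in the methods text.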

Additional observations from a re-analysis of the deposited data

How the results depend on the processing

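The probe counts, list medians and differences of the genes described were recomputed under alternative choices, and those named "75th percentile over spots" and "median of tested probes subtracted" were chosen after seeing the data. The counts of probes higher and lower with pinosylvin (1864 and 1664) became 1072 and 903 with no filter on dim probes, where more tests were adjusted for, 3507 and 2816 with replicate as a block, and 3564 and 2879 with slide as a block. Leaving out 1 array gave 1086 to 1988 higher and 1030 to 1695 lower, with fewer arrays. Against control, pinosylvin (4019) and resveratrol (4123) had 2409 and 2680 probes with no filter, 6947 and 6769 with replicate as a block, 7074 and 6869 with slide as a block, and 2808 to 3752 and 2872 to 4134 without 1 array. The share of calls that were higher, 52.8%, was 44.3% after quantile normalization (1590 higher, 2000 lower), 45.8% after normexp and quantile normalization, 47.1% in the deposited table and 59.6% with the percentile over spots, so which direction held more probes depended on scaling, and also on single arrays (1224 higher and 1282 lower without pinosylvin replicate 1, 1104 and 1207 without resveratrol replicate 3). The muscle median of 0.40 was 0.30 after quantile normalization, 0.26 after normexp and quantile normalization, 0.29 in the deposited table, 0.46 on slide 2 alone and 0.40 to 0.44 without 1 array, and the cause of these shifts was not tested. The medians for cholesterol synthesis, mitosis and Nrf2 targets, -1.01, -0.79 and -0.56, were -1.01, -0.71 and -0.59 on slide 1 and -0.97, -0.81 and -0.57 on slide 2. The median of the Ah receptor list, -0.23, was -0.051 with normexp, that of extracellular matrix genes, 0.097, was 0.015 after quantile normalization, and that of immediate early genes, 0.12, was 0.035 with normexp and quantile normalization. Further medians shrank by over 1.5 times, to 0.0087 for glycolysis, 0.14 for the estrogen receptor list, -0.15 for conjugation and efflux and -0.064 for myoblast markers. Without 1 array, that of p53 targets came to -0.042, of inflammatory genes to 0.016 and of sirtuin genes to -0.0032. The medians near 0 of sterol sensing, DNA replication, ATF4 targets, heat shock chaperones, fatty acid oxidation, interferon and metallothionein genes changed sign under at least 1 alternative. *Hspa5*, which did not pass the threshold at -0.040, turned to 0.0011 on slide 2 and ranged from -0.081 to 0.0049 without 1 array. Among other genes that did not pass it, the smallest values were -0.061 for *Fdft1*, 0.14 for *Atf4*, -0.49 for *Kif2c* and -0.11 for *Srebf2*. Of 142 genes described here, 133 passed the threshold, 86 did so under every alternative with a test, 47 lost it under at least 1, and 0 of the 133 changed direction. Their differences were over 1.5 times smaller for 28 with normexp, 33 with normexp and quantile normalization, and 21 in the deposited table. Blocking on replicate brought *Cyp1b1*, *Atf4*, *Acta1*, *Mvk* and *Kif2c* past the threshold, blocking on slide also *Srebf2*, and neither changed the call of any other gene described here.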
